A study of Mus musculus with 74 samples.

Results

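Genes of fatty acid oxidation and recognised targets of the nuclear receptor PPARalpha were followed through white fat, brown fat and liver of drug-treated mice. The list held 32 gene symbols, taken from pathway knowledge but chosen with earlier results of these data known. Of them, 29 had a probe set that the platform annotation gives to a single gene, out of 18193 genes measured that way, and each was read from the brightest such probe set, by the mean of all arrays. Acsl1, which activates long-chain fatty acids, Cpt1b, the muscle form of carnitine palmitoyltransferase 1, and Cyp4a10, a microsomal omega-hydroxylase, had no such probe set and were not analysed here. The values are log2 of RMA-summarised array intensities, so a difference of 1 is a doubling of the intensity.

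All animals were male B6C3F1 mice, a hybrid strain, and each array held bulk RNA of 1 tissue of 1 mouse. In the fenretinide study, white fat was taken from vehicle mice and from mice given fenretinide, a synthetic retinoid, in the diet at 500 mg/kg, with 3 mice a group on day 15 and 4 on day 29. In the troglitazone study, brown fat and liver were taken from vehicle mice and from mice given troglitazone, a thiazolidinedione agonist of PPARgamma, by mouth at 1200 mg/kg, with 5 mice a group on days 15 and 29. In the Elmiron study, liver was taken from vehicle mice and from mice given Elmiron (pentosan polysulfate) by mouth at 1000 mg/kg, again with 5 mice a group on each day. The labels place the doses above the high doses of carcinogenicity studies and give no ages. Compound, dose and study go together, so they cannot be told apart. In bulk RNA, fewer cells of a type and less RNA per cell cannot be told apart either.

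Fatty acids enter mitochondria as carnitine esters: Cpt1a forms the ester at the outer membrane, Slc25a20 carries it across the inner membrane and Cpt2 turns it back into acyl-CoA. Beta-oxidation then removes acetyl-CoA units in repeated rounds, with dehydrogenases that pass electrons through Etfa, Etfb and Etfdh to the respiratory chain. Very long and branched chains are shortened first in peroxisomes, and a side route, omega-oxidation, starts in the endoplasmic reticulum with Cyp4a enzymes. PPARalpha, active above all in liver and brown fat, binds DNA as a partner of RXR and switches on genes of all of these routes when fatty acids or fibrate drugs bind it. Brown fat burns fatty acids to make heat, liver oxidises them in fasting to make ketone bodies, and white fat mainly stores and releases them.

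Promoter sequences are shown for the members on which the results below turn: Acaa1b and Acot1, which were called in treated animals, Cpt1a, which stood against the rest of its group between tissues, and Hadhb, which shares its promoter with Hadha. They are RefSeq sequences of build GRCm38.p6, each 300 bases long and reaching 50 bases past a start site of the gene, read 5′ to 3′ on its strand. For Cpt1a this site lies 975 bases inside the annotated gene, which begins at position 3322326, and for the other 3 it is where the gene begins. Capitals mark matches on either strand to AGGTCA (the half-site of nuclear receptors), GGGCGG (the GC box) and CCAAT (the CCAAT box). Acaa1b lies at chr9:119157044-119157343 on the minus strand, Acot1 at chr12:84009252-84009551, Cpt1a at chr19:3323051-3323350 and Hadhb at chr5:30155003-30155302, these 3 on the plus strand.
Acaa1b: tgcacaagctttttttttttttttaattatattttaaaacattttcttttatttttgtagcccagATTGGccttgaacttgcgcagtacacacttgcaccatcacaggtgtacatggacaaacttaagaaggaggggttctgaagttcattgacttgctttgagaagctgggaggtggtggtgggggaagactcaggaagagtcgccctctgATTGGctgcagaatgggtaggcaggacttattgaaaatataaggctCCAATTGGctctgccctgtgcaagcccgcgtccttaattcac
Acot1: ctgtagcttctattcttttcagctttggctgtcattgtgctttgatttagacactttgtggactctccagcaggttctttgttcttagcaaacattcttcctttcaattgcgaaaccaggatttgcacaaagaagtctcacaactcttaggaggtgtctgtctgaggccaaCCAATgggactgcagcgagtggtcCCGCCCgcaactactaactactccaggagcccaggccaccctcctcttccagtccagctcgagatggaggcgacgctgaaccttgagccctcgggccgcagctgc
Cpt1a: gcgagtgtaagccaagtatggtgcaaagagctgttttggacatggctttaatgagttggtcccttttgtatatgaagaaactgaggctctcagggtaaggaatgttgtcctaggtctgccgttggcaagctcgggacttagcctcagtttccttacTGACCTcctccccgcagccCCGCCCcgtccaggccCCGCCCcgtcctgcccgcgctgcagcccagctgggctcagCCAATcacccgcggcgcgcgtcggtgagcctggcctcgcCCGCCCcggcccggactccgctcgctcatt
Hadhb: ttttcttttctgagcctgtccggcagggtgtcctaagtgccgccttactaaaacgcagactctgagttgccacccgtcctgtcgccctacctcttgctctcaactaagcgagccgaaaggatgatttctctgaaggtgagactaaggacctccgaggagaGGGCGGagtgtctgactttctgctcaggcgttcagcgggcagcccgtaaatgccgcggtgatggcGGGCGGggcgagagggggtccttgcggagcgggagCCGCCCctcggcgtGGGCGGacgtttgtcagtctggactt

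Windows were present for 25 of the 32 listed genes, 27 windows in all, and were set beside all 32851 windows of the same length. The direct repeat AGGTCANAGGTCA, the form that PPAR and RXR bind as a pair, was in 0 of the 27 windows and in 0.0396% of all windows. A sequence this rare would be missing from almost any 27 windows, so its absence says nothing about these genes. Sites with other letters or outside the windows were not searched. A single AGGTCA was in 4 of 27 (Acadm, Acadvl, Cpt1a and Creb3l3) against 16.3% of all. The GC box was in 19 of 27 against 35.7%, the CCAAT box in 13 of 27 against 37.4%, and TATAAA in 0 of 27 against 13.6%. A half-site is part of the direct repeat, so those searches overlap. A match describes the letters of the window and is no evidence of binding. Hadha and Hadhb encode the alpha and beta subunits of the mitochondrial trifunctional protein and are read in opposite directions, with start sites 273 bases apart, so that 228 bases of their windows are the same DNA.

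Several libraries carried markers of another tissue. Liver libraries matched their label: the mean of 9 hepatocyte markers was 14.5 to 14.7 in all 40. Elmiron mouse 92 of day 29 had a mean of 8.82 over 7 brown adipocyte markers, where the other livers were at 7.49 to 7.82. In 18 of 20 brown fat libraries the mean of 7 brown adipocyte markers was 12.8 to 13.3, but vehicle mouse 82 and troglitazone mouse 95 of day 29 were at 7.97 and 8.84, and their white adipocyte markers, at 13.5 in both, were above the 9.70 to 11.0 of the rest. Vehicle mouse 82 also had hepatocyte markers at 12.1. In white fat of day 29, vehicle mouse 85 and fenretinide mouse 93 had raised brown adipocyte markers (10.4 and 12.2), and vehicle mouse 86 and fenretinide mouse 95 had raised hepatocyte markers (10.5 and 11.6). These 6 libraries are marked as open circles in the plots by mouse, and several results that rest on them are given with and without them. Fenretinide mouse 91 of day 29, with brown adipocyte markers at 9.99, lay just under the limit of 10 used for this and was kept. Skeletal muscle markers varied widely in the other brown fat libraries, with means from 9.25 to 13.6.

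Most members differed more between brown fat and liver of vehicle mice than between treated and vehicle mice. Acot1, Ehhadh and Pex11a were among the exceptions. Over the 16 groups of tissue, agent and day, group means of Pdk4 spanned 7.24 log2 units, those of Cyp4a14 5.45 and those of Creb3l3 4.78, against 0.52 for Pex11a and 0.77 for Hadh. In vehicle mice of the troglitazone study, 17 of 29 members were higher in brown fat than in liver and 10 were lower (limma, Benjamini-Hochberg adjusted p below 0.05 over all 18193 genes), where 31.6% of all genes were called higher and 44.5% lower. Without mouse 82 these counts were 19 and 10, against 32.8% and 45.1% of all genes.

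Directions differed by role. Of the mitochondrial beta-oxidation enzymes, 7 of 8 were higher in brown fat and 0 were lower, and all 3 electron transfer genes were higher. Hadhb ran from 13.0 to 14.7 with a median of 14.6 over 10 brown fat vehicle libraries, and from 12.6 to 12.9 with a median of 12.7 over 10 livers. The lowest brown fat value was mouse 82, and no brown fat library overlapped the livers. The difference of Hadhb was 1.69 ± 0.14 (SE, adjusted p = 9.7e-14), that of its partner Hadha 1.34 ± 0.19 and that of the long-chain dehydrogenase Acadl 1.54 ± 0.15. Without mouse 82 they were 1.85 ± 0.04 for Hadhb, 1.554 ± 0.062 for Hadha and 1.715 ± 0.046 for Acadl. Acaa2, the thiolase that ends a mitochondrial round, differed by 0.19 ± 0.19 (adjusted p = 0.36), or by 0.39 ± 0.03 without mouse 82 (adjusted p = 1.36e-12).

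The carnitine shuttle divided. Cpt2, Crat, which moves acetyl groups to carnitine, and Slc25a20 were higher in brown fat by 1.37, 1.18 and 0.89, while Cpt1a was lower by 3.39 ± 0.21 (adjusted p = 5.31e-17). Cpt1a was between 12.3 and 12.9 in 10 livers and between 8.81 and 9.29 in brown fat, apart from mouse 82 at 11.4. Without that mouse the difference of Cpt1a was -3.63 ± 0.08 (adjusted p = 1.14e-30). The muscle isoform Cpt1b was not analysed here. Pdk4, the kinase that inhibits pyruvate dehydrogenase and so spares glucose, showed the largest difference of all members. Its median was 14.3 in brown fat and 7.25 in liver, with no overlap, and the difference was 6.64 ± 0.41 (adjusted p = 4.63e-17). Without mouse 82 the difference of Pdk4 was 7.08 ± 0.19. Skeletal muscle also expresses Pdk4, and the part of the muscle markers of brown fat in its level was not tested.

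Several peroxisomal, omega-oxidation and hepatic target genes ran the other way. The peroxisomal thiolase Acaa1b was lower in brown fat by 2.67 ± 0.10 and Ehhadh, the bifunctional enzyme before it, by 0.35 ± 0.16 (adjusted p = 0.049, or 0.0507 with the mouse as a replicate block, which left 9 members lower). Without mouse 82, Ehhadh differed by -0.19 ± 0.06 (adjusted p = 0.00757). Pex11a, which drives the division of peroxisomes, differed by 0.15 ± 0.08 (adjusted p = 0.092) and was 0.20 higher in brown fat without mouse 82 (adjusted p = 0.0172). Cyp4a14, which hydroxylates the omega end of fatty acids, was lower by 2.97 ± 0.31. Its brown fat values, 5.75 to 6.16, lay below the array medians of 6.80 to 6.94, and no detection call was used, so that this difference can be read only as a lower bound. Aldh3a2, the dehydrogenase that completes that route, was lower by 1.99 ± 0.08. Vnn1, a pantetheinase, was lower by 2.59 ± 0.24 and Acot1, a cytosolic acyl-CoA thioesterase, by 1.34 ± 0.17. Creb3l3, the liver transcription factor that works with PPARalpha in fasting, was 12.7 to 12.9 in livers and 8.01 to 8.79 in brown fat, a difference of -4.38 ± 0.06 (adjusted p = 1.63e-36). Among the auxiliary enzymes of unsaturated acids, Eci1 and Decr1, which are mitochondrial, and Ech1 were higher in brown fat, while Decr2, a peroxisomal reductase, was lower by 1.57 ± 0.16 and Eci2 by 0.39 ± 0.08. These differences are drawn in the plot of brown fat against liver.

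**Figure D1:**
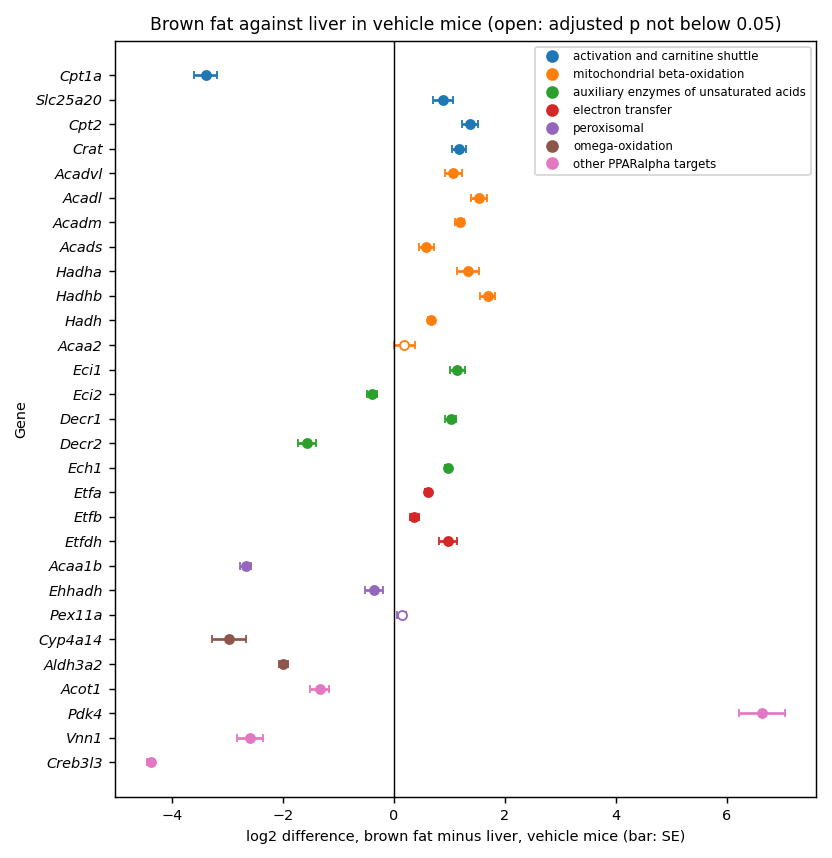
The log2 difference between brown fat and liver of vehicle mice of the troglitazone study is plotted for each of 29 genes, with bars for the standard error of the fit, colours for the role, and open circles for genes whose adjusted p was not below 0.05. Mitochondrial and electron transfer genes lie to the right of 0, Pdk4 farthest at 6.64, and Cpt1a, Cyp4a14, Acaa1b, Vnn1 and Creb3l3 lie to the left.

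Of the other genes of the pathway, 10 of 26 were higher in brown fat and 14 lower. Cd36, a fatty acid transporter (6.55), Fabp3, a fatty acid binding protein of muscle and brown fat (6.15), and Abcd2, a peroxisomal transporter (3.62), were the largest on one side. Fabp1, the liver binding protein (-8.56), Cyp4a12a (-7.41) and Bdh1, a ketone body enzyme (-6.03), were the largest on the other. Of the 8 receptors and coactivators, Pparg was higher in brown fat by 4.76, Ppargc1b by 3.02, Ppargc1a by 2.64, Esrra by 1.63, Ppard by 1.03 and Nrf1 by 0.19, and Rxra was lower by 1.91. Ppara itself differed by 0.43 ± 0.36 (adjusted p = 0.28).

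White fat came from another study, so its levels are set beside the others without a test. Among vehicle mice without the libraries that carried markers of another tissue (5 white fat, 9 brown fat and 10 liver), the mean was highest in brown fat for 19 members and highest in liver for 10, and in white fat for 0. Of all genes, 20.6% were highest in brown fat, 49.3% in liver and 30.1% in white fat. For 25 of the 29, no library of the highest tissue overlapped the tissue next to it, as for 34.5% of all genes. The exceptions were Eci2, Ehhadh, Pex11a and Vnn1. Acot1 was 5.62 to 6.08 in all 7 white fat vehicle libraries, below every vehicle library of brown fat and liver.

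In liver, troglitazone raised the peroxisomal thiolase. On day 15, Acaa1b was 14.12, 13.87, 13.88, 14.01 and 14.04 in the 5 vehicle mice and 14.58, 14.40, 14.51, 14.62 and 14.47 in the 5 treated mice. All treated mice were above all vehicle mice, and Acaa1b rose by 0.53 ± 0.08 (1.44-fold, adjusted p = 0.00208). It was the 1 member of 29 called higher, where 0.022% of all genes were called higher, and 0 were called lower against 0% of all genes (limma; 6 members were higher and 1 lower at an unadjusted p below 0.05, as were 2.34% and 1.96% of all genes). The call stood whichever mouse was left out.

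Of the other targets, 3 with groups that did not overlap were above vehicle on day 15 without passing the test. Ehhadh was 0.49 ± 0.09 higher (adjusted p = 0.052), Vnn1 1.21 ± 0.23 higher (adjusted p = 0.073), and in both all treated mice were above all vehicle mice. Cyp4a14 was 9.98, 8.79, 7.69, 9.15 and 8.50 in vehicle livers and 11.38, 11.33, 10.10, 12.08 and 11.25 in treated livers. Those groups did not overlap, but vehicle mice alone spanned more than 2 units, and the difference of 2.40 ± 0.55 had an adjusted p of 0.31. Of all genes, 2.09% had groups that did not overlap, and of the members 5 did, all higher: Acaa1b, Ehhadh, Vnn1, Cyp4a14 and Hadh.

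On day 29, Vnn1 was the member called: it was 9.19, 10.67, 10.06, 9.04 and 10.15 in vehicle mice and 11.24, 11.01, 11.17, 10.6 and 11.52 in treated mice. Vehicle mouse 85, at 10.67, lay above the lowest treated mouse. Vnn1 rose by 1.29 ± 0.23 (2.44-fold, adjusted p = 0.0219), 1 of 29 members against 0.0934% of all genes, with 0 members called lower against 0.022%. The call was lost without vehicle mouse 83 (1.13, adjusted p = 0.0678), treated mouse 92 (1.26, adjusted p = 0.0666) or treated mouse 96 (1.19, adjusted p = 0.0687). A second, dimmer probe set for Vnn1 differed by 1.38.

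Acaa1b on day 29 was 14.13, 14.14, 14.14, 13.99 and 14.11 in vehicle livers and 14.39, 14.34, 14.47, 14.58 and 14.57 in treated livers, again with no overlap, a difference of 0.37 ± 0.08 (adjusted p = 0.059). Aldh3a2 was 0.43 ± 0.11 higher (adjusted p = 0.22) and also did not overlap. These were the 2 members with groups apart, where 1.07% of all genes were so. Cyp4a14 was 1.98 ± 0.55 higher (adjusted p = 0.28).

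None of the mitochondrial enzymes was called. The 8 beta-oxidation enzymes had a median difference of 0.02 on day 15 and of -0.07 on day 29, and the median over all genes was -0.01 and 0.00. Cpt1a was 0.16 ± 0.12 lower on day 15 (adjusted p = 0.96) and 0.33 ± 0.12 lower on day 29 (adjusted p = 0.41). Pdk4 was 0.52 ± 0.32 and 0.62 ± 0.32 higher (adjusted p = 0.96 and 0.51), Acot1 0.30 ± 0.16 and 0.31 ± 0.16 higher (0.96 and 0.50), and Creb3l3 0.17 ± 0.07 and 0.14 ± 0.07 lower (0.96 and 0.52). No member passed the test of a difference of the effect between the days (limma interaction, 0 of 29 called against 0% of genes). At an unadjusted p below 0.05, 0 passed in either direction, against 5.38% of genes higher and 2.12% lower.

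Cd36 was the 1 of 26 other pathway genes called in these livers. On day 29 it was 7.35, 7.67, 7.80, 7.24 and 7.63 in vehicle mice and 10.15, 9.31, 9.12, 8.93 and 8.91 in treated mice, a rise of 1.75 ± 0.22 (adjusted p = 6.05e-04). On day 15 it was 1.04 ± 0.22 higher (adjusted p = 0.14). Macrophages also express Cd36, and the 6 macrophage markers were all above vehicle on day 29 (median 0.45, 0 called), with means of 9.15 to 9.94 in treated and 8.72 to 9.23 in vehicle livers. On day 15, 5 of the 6 were above vehicle (median 0.17). Their part in the rise of Cd36 was not tested. No receptor or coactivator was called on either day (0 of 8). Ppara was lower by 0.04 on day 15 and by 0.46 on day 29 (adjusted p = 0.99 and 0.40), Rxra by 0.14 and 0.40, and Ppargc1b by 0.35 and 0.55, while Pparg was 0.16 and 0.17 higher. The other 4 (Ppard, Ppargc1a, Esrra and Nrf1) lay between -0.16 and 0.10. The values of each mouse are drawn in the plot of 6 genes in liver.

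**Figure D2:**
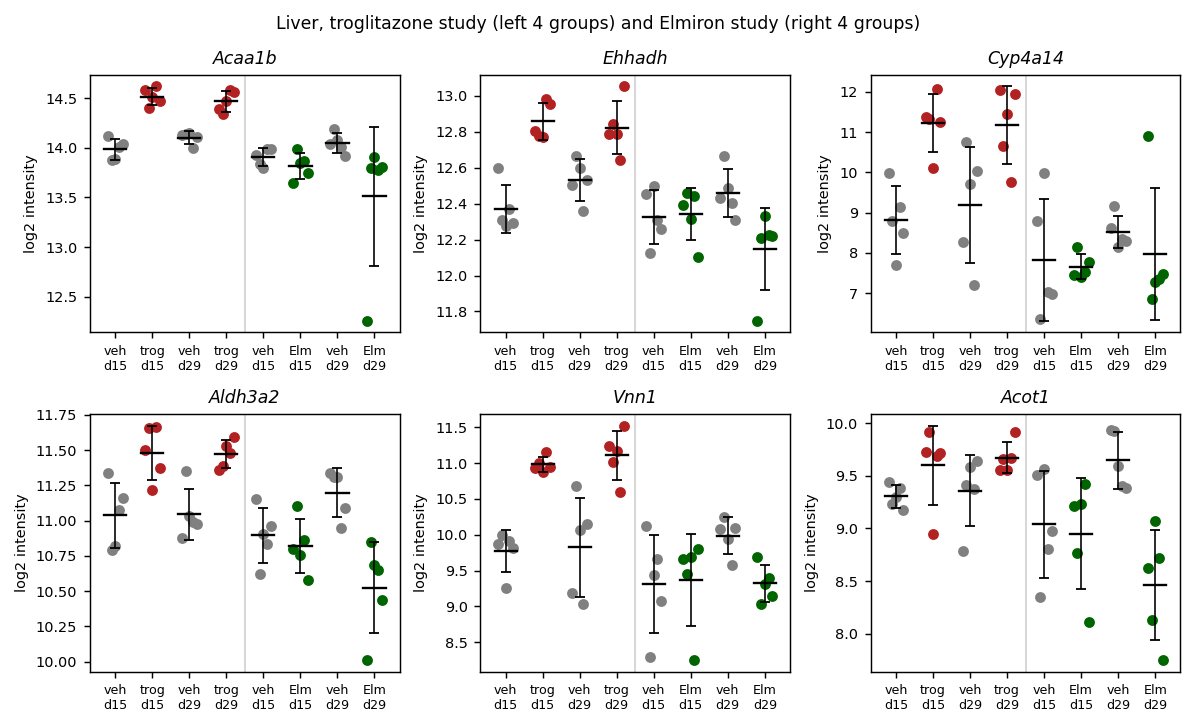
Points show the log2 intensity of 6 genes in each liver, with group means and SD bars, for vehicle (grey), troglitazone (red) and Elmiron (green) mice on days 15 and 29. Troglitazone livers lie above vehicle livers for Acaa1b on both days, Cyp4a14 varies by more than 2 units among vehicle mice, and Elmiron mouse 91 of day 29 lies apart at 12.26 for Acaa1b and 10.89 for Cyp4a14.

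Acaa1b also rose in brown fat of the same study. On day 15 it was 11.32, 11.28, 11.18, 11.11 and 11.60 in vehicle mice and 12.56, 12.73, 12.16, 12.54 and 12.48 in troglitazone mice. The groups did not overlap, and Acaa1b rose by 1.196 ± 0.191 (2.29-fold, adjusted p = 0.0175). It was the 1 member called higher, where 0.0495% of all genes were, and 0 were called lower against 0.011%. The call was lost in 7 of the 10 fits that left out 1 mouse of the groups compared, with adjusted p up to 0.0643 and a change of at least 1.14.

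On day 29, Acaa1b was 11.76, 11.33, 10.78, 11.79 and 11.58 in vehicle mice and 12.38, 11.97, 12.50, 12.04 and 12.93 in treated mice. Again no treated mouse overlapped a vehicle mouse, with a difference of 0.92 ± 0.19 (adjusted p = 0.078, or 0.036 without vehicle mouse 82 alone). No member was called on this day (limma; 0 of 29 in either direction against 0.0275% of genes higher and 0.0275% lower, with 1 higher and 1 lower at an unadjusted p below 0.05, against 2.81% and 3.2% of genes). The gene next to it in p was Acot1, at 7.70, 7.94, 7.82, 8.67 and 8.06 in vehicle mice and 6.90, 7.38, 6.94, 7.41 and 5.56 in treated mice. All treated mice were below all vehicle mice, a difference of -1.202 ± 0.301 (adjusted p = 0.21). Only 0.759% of all genes had groups that did not overlap on this day. On day 15, Acot1 overlapped between groups and was 0.22 ± 0.30 lower (adjusted p = 1).

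Mice 82 and 95 carry much of the spread in this tissue. Both belong to day 29, but all 4 groups share 1 estimate of the spread, so they also weigh on day 15. In a fit without them, chosen after seeing the data, 4 members were called higher on day 15, where 0.72% of all genes were (and 0 lower, against 0.231%): Acaa1b (1.196, adjusted p = 0.00102), Decr2 (0.37, adjusted p = 0.00889), Acads (0.26, adjusted p = 0.0228) and Ehhadh (0.43, adjusted p = 0.0291). On day 29, 4 were called higher, where 0.588% of all genes were (and 0 lower, against 0.5%): Decr2 (0.52, adjusted p = 0.00213), Eci2 (0.25, adjusted p = 0.0218), Acads (0.29, adjusted p = 0.0283) and Acaa1b (0.85, adjusted p = 0.0311). Acaa1b, Decr2 and Acads were thus called on both days. Acot1 was then 0.97 lower on day 29 (adjusted p = 0.061).

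Single values show the size of these shifts. Decr2 on day 15 was 10.80, 10.88, 10.85, 10.64 and 10.89 in vehicle mice and 11.17, 11.04, 11.17, 11.34 and 11.18 in treated mice. On day 29 it was 10.63 to 10.86 in 4 vehicle mice and 11.22 to 11.31 in 4 treated mice, with mouse 82 at 9.51 and mouse 95 at 9.38. Acads, the short-chain dehydrogenase, was 12.72 to 12.80 in those 4 vehicle mice and 13.00 to 13.09 in those 4 treated mice of day 29, with 11.23 in mouse 82 and 11.76 in mouse 95. Outside the 2 mice the groups did not overlap for either gene, and the differences are a fraction of 1 log2 unit.

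Most other members lay slightly above vehicle in brown fat: 26 of 29 on day 15 and 25 of 29 on day 29, where 50.9% and 53.6% of all genes did. The median difference was 0.09 and 0.14, against 0.00 and 0.01 over all genes. Without mice 82 and 95, the counts were 26 and 21 and the medians 0.09 and 0.10, with no share of all genes given for that fit. On day 15, 10 members had treated values above all vehicle values, where 3.25% of all genes had groups that did not overlap in one direction or the other: Acadvl, Acads, Acaa2, Eci2, Decr2, Ech1, Etfb, Acaa1b, Ehhadh and Pex11a. The 7 brown adipocyte markers were also all above vehicle on day 15 (median 0.10), and 9 of 10 muscle markers were below it (median -0.53). All 5 exocrine pancreas markers were above vehicle on that day (median 0.64; mouse 55 had a mean of 9.33), and all 9 hepatocyte markers were below vehicle on both days (medians -0.32 and -0.79), with 0 called. Their part in the members' shift was not tested.

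Cpt1a was 0.25 ± 0.39 higher in brown fat on day 15 and 0.13 ± 0.39 on day 29 (adjusted p = 1 for both), Pdk4 differed by -0.01 ± 0.72 and 0.05 ± 0.72, and Creb3l3 by 0.05 ± 0.11 and -0.21 ± 0.11 (adjusted p = 1 and 0.88). Cyp4a14, which varied so widely in liver, stayed between 5.75 and 6.16 in all 20 brown fat libraries. No other pathway gene (0 of 26) and no receptor or coactivator (0 of 8) was called on either day. Pparg, the receptor of troglitazone, was 0.49 ± 0.12 lower on day 15 and 0.38 ± 0.12 lower on day 29 (adjusted p = 0.21 and 0.45). Ppara was 0.69 ± 0.69 and 0.49 ± 0.69 higher (adjusted p = 1). The SE of Ppara rests on the shared spread of all groups, including the brown fat libraries that carried markers of another tissue. A fit without those libraries is not given for the receptors, so these values cannot tell a small effect from none. Rxra, Esrra and Ppargc1b each differed by at most 0.07 in size, Ppard by -0.07 and -0.18, Nrf1 by -0.08 and -0.13, and Ppargc1a by 0.19 and -0.54. The effect of troglitazone did not pass the test of a difference between days for any member (limma, 0 of 29 against 0% of genes, with 0 higher and 1 lower at an unadjusted p below 0.05, against 0.605% and 0.533% of genes).

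**Figure D3:**
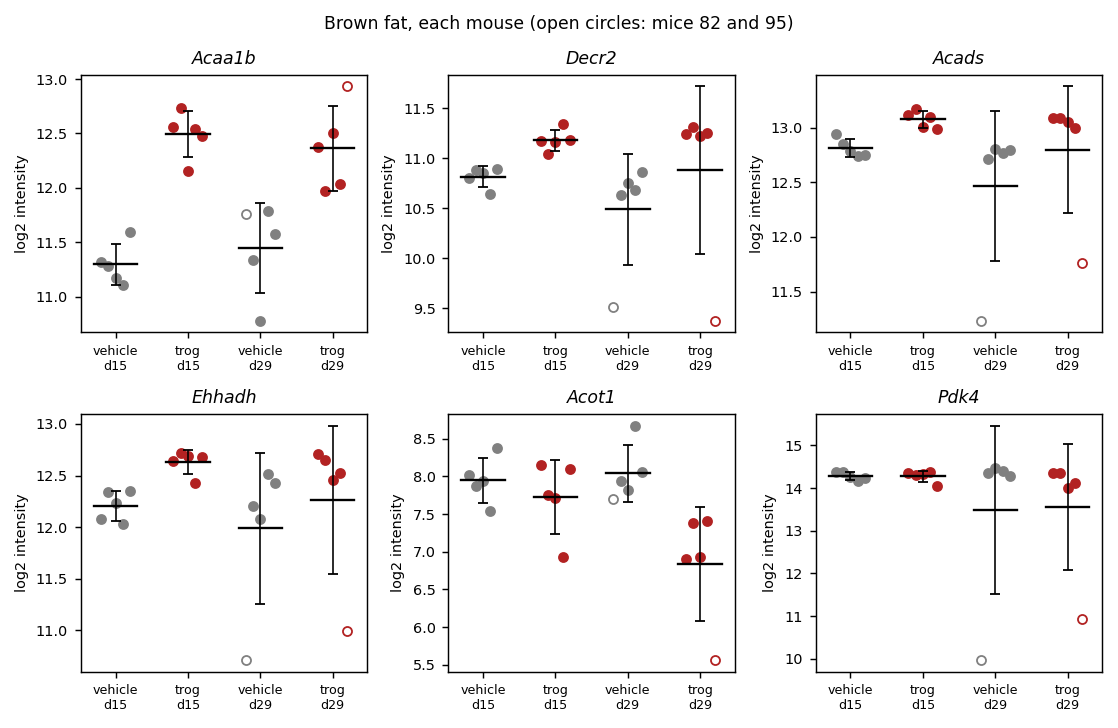
Points show the log2 intensity of 6 genes in each brown fat library, with group means and SD bars over all 5 mice, for vehicle (grey) and troglitazone (red) on days 15 and 29. Open circles are mice 82 and 95, which lie far below the rest for Decr2, Acads, Ehhadh and Pdk4, and Acaa1b is higher in every treated mouse than in every vehicle mouse of its day.

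The effect of troglitazone was compared between the tissues directly, in 1 fit of 40 arrays. No member passed on day 15 or on day 29 (limma interaction, 0 of 29 on each day, against 0.0055% of all genes higher and 0.0165% lower on day 15 and 0.0055% and 0.011% on day 29). At an unadjusted p below 0.05, 1 member was higher and 2 lower in brown fat on day 15, against 2.02% and 1.17% of all genes. On day 29, 1 was higher and 3 were lower, against 2.49% and 2.91%. The widest gaps were in Cyp4a14, where the effect in brown fat minus that in liver was -2.41 ± 0.62 and -2.004 ± 0.618 (adjusted p = 0.38 and 0.54). Its values in brown fat lay below the array medians, where a change may not be measurable. Acot1 on day 29 differed by -1.51 ± 0.35 (adjusted p = 0.18). Without mice 82 and 95 that value was -1.28 and passed (adjusted p = 0.0428, against 0.137% of all genes higher and 0.132% lower), as it did when mouse 82 alone was left out (adjusted p = 0.0456). For Acaa1b the effect was 0.67 ± 0.21 larger in brown fat on day 15 and 0.55 ± 0.21 on day 29 (adjusted p = 0.86 and 0.75). Cpt1a differed by 0.41 and 0.47, Pdk4 by -0.52 and -0.56 and Creb3l3 by 0.23 and -0.08 (adjusted p = 1 for each). Without mice 82 and 95, Cpt1a differed by 0.60 ± 0.17 on day 29 and Pdk4 by -0.79 ± 0.38 (adjusted p = 0.151 and 0.55). Among other pathway genes Cd36 was called on day 29, with an effect 1.66 ± 0.25 smaller in brown fat (adjusted p = 0.0024).

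Acaa1b and Acot1 belong to families with close paralogs. Their probe sets each have 1 gene in the annotation, and cross-hybridisation was not tested. The neighbouring thiolase Acaa1a, named here after its values were seen, differed by 0.01 and 0.07 in brown fat and by 0.30 and 0.06 in liver of troglitazone mice on days 15 and 29 (adjusted p = 0.61 or above for each). In liver on day 15 all treated mice were above all vehicle mice for Acaa1a (limma, unadjusted p = 0.00139). Groups were apart, in one direction or the other, for 381 of 18193 genes there. In the other comparisons named, Acaa1a overlapped.

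No member passed the test with Elmiron on either day. On day 15, 0 of 29 were called in either direction (limma; 0% of all genes were called, and 0 members passed an unadjusted p of 0.05, against 3.3% of genes higher and 2.18% lower). No member had groups that did not overlap, where 1.06% of all genes did. The smallest p belonged to Pex11a. It was 11.26, 11.12, 11.15, 11.17 and 10.93 in vehicle livers and 10.93, 10.65, 11.15, 11.18 and 10.67 in Elmiron livers, a difference of -0.21 ± 0.11 (adjusted p = 0.93). Acadm, the medium-chain dehydrogenase, was 13.32, 13.12, 13.32, 13.29 and 13.22 in vehicle livers and 13.39, 13.37, 13.31, 13.44 and 13.26 in Elmiron livers, a difference of 0.10 ± 0.07 (adjusted p = 0.975). In both genes the groups overlapped. Cpt1a, Acot1, Acaa1b, Creb3l3 and Pdk4 differed by -0.03, -0.09, -0.09, -0.03 and 0.20 (adjusted p = 0.998 for each).

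On day 29, 26 of 29 members were below vehicle, where 54% of all genes were above it, with a median of -0.13 against 0.01. None was called (limma; 0 of 29 against 0% of genes higher and 0.0055% lower), while 0 were higher and 11 lower at an unadjusted p below 0.05, against 4.41% and 3.89% of all genes. Aldh3a2 was 11.34, 11.31, 11.31, 10.94 and 11.09 in vehicle livers and 10.01, 10.85, 10.69, 10.65 and 10.43 in Elmiron livers. All treated mice were lower, with a difference of -0.67 ± 0.14 (adjusted p = 0.18). Acot1 was 9.94, 9.93, 9.59, 9.40 and 9.38 in vehicle livers and 8.63, 8.13, 9.07, 8.72 and 7.75 in treated livers, also without overlap, a difference of -1.19 ± 0.26 (adjusted p = 0.28). Acaa1b, Etfa and Etfdh made up, with these, the 5 members whose groups did not overlap, where 1.43% of all genes had such groups.

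Elmiron mouse 91 of day 29 lay apart from its group. Its Acaa1b was 12.26 against 13.78 to 13.91 in the other 4, its Ehhadh 11.75 against 12.21 to 12.33 and its Cyp4a14 10.89 against 6.85 to 7.48. Without it, members below vehicle were again 26, the median was -0.15, and Aldh3a2 and Acot1 were 0.54 and 1.23 lower (adjusted p = 0.42 and 0.49). Acaa1b was 0.54 ± 0.21 lower with it and 0.22 ± 0.08 lower without it (adjusted p = 0.53 and 0.59). Cyp4a14 was 0.54 ± 0.63 lower with it and 1.27 ± 0.48 lower without it (adjusted p = 0.82 and 0.59). Cpt1a, Creb3l3 and Pdk4 differed by -0.16, -0.12 and 0.27 in the full groups, and Vnn1 by -0.67 ± 0.28 (adjusted p = 0.57). Without mouse 92, which carried brown adipocyte markers, 26 members were again below vehicle with a median of -0.15 and 0 called, and Aldh3a2 and Acot1 were 0.75 and 1.10 lower (adjusted p = 0.13 and 0.26). Shares of all genes below vehicle are not given for the fits without mouse 91 or 92. No member passed the test of a difference between the effects of day 29 and day 15 (limma, 0 of 29 against 0% of genes). At an unadjusted p below 0.05, 0 were higher and 8 lower on day 29, against 2.79% and 2.61% of genes.

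No other pathway gene (0 of 26) and no receptor or coactivator (0 of 8) was called with Elmiron on either day. On days 15 and 29, Ppara differed by 0.02 and -0.04, Ppard by 0.07 and 0.27, Pparg by 0.10 and -0.03, Rxra by -0.08 and 0.18, Ppargc1a by 0.26 and 0.44, Ppargc1b by -0.17 and 0.30, Esrra by -0.16 and -0.02, and Nrf1 by -0.14 and 0.02.

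The liver effects of troglitazone and Elmiron, each against its own vehicle mice, were set against each other at the doses and days given above. On day 29 the difference passed for 3 members, all higher with troglitazone, where 0.0879% of all genes were called higher and 0.0055% lower. Aldh3a2 differed by 1.10 ± 0.18 (adjusted p = 0.00775), Vnn1 by 1.96 ± 0.38 (adjusted p = 0.024) and Acot1 by 1.496 ± 0.319 (adjusted p = 0.0465). Against their own vehicle mice, these genes in this order changed by 0.43, 1.29 and 0.31 with troglitazone. With Elmiron they changed by -0.67, -0.67 and -1.19. Aldh3a2 passed in all 20 fits without 1 mouse, Vnn1 in 12 and Acot1 in 4, with changes between 1.76 and 2.17 for Vnn1 and between 1.32 and 1.65 for Acot1. Acaa1b differed by 0.90 ± 0.23 (adjusted p = 0.12), and by 0.59 ± 0.10 without Elmiron mouse 91, which passed (adjusted p = 0.0124). Cyp4a14 differed by 2.52 ± 0.89 (adjusted p = 0.28), or by 3.25 ± 0.79 without that mouse (adjusted p = 0.10), and Ehhadh by 0.60 ± 0.14 (adjusted p = 0.067). Cpt1a differed by -0.18 ± 0.15, Pdk4 by 0.35 ± 0.39 and Creb3l3 by -0.02 ± 0.10 (adjusted p = 0.60, 0.71 and 0.96). Of other pathway genes Cd36 was called, 1.48 ± 0.30 higher with troglitazone (adjusted p = 0.0307), and the 6 macrophage markers were also all higher (median 0.39, 0 called).

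On day 15 no member passed this comparison (limma interaction, 0 of 29 against 0.0055% of all genes higher and 0% lower, with 5 higher and 0 lower at an unadjusted p below 0.05, against 2.85% and 3.12% of genes). Ehhadh at 0.47 ± 0.14 (adjusted p = 0.71) and Vnn1 at 1.15 ± 0.38 (adjusted p = 0.78) had the smallest p. Cyp4a14 differed by 2.57 ± 0.89 (adjusted p = 0.81), Acaa1b by 0.62, Acot1 by 0.39, Pdk4 by 0.32, Cpt1a by -0.14 and Creb3l3 by -0.15.

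In white fat, fenretinide was followed by a rise of Acot1 on day 15. It was 5.79, 5.93 and 5.62 in the 3 vehicle mice and 8.31, 8.82 and 7.68 in the 3 treated mice. The groups stood far apart, and Acot1 rose by 2.49 ± 0.32 (5.61-fold, adjusted p = 6.9e-04). The vehicle values lay below the array medians and no detection call was used, so that the fold can be read only as a lower bound. It was the 1 member called higher, where 3.27% of all genes were, and 0 were called lower against 0.682% (limma; 3 members were higher and 3 lower at an unadjusted p below 0.05, as were 10.9% and 8.83% of all genes). The call stood in all 6 fits without 1 mouse. It also stood without the 4 libraries of day 29 that carried markers of another tissue (adjusted p = 0.00252), where 2.63% of all genes were called higher and 0.566% lower. That fit left the day 15 libraries as they were and altered only the shared estimate of the spread. It cannot test markers of another tissue on day 15. The same 3 treated libraries carried epithelial markers: the mean of 8 was 9.81, 9.97 and 11.0 against 6.57, 7.21 and 7.52 in vehicle mice, 7 of 8 were higher and 5 were called. The part of these markers in the rise of Acot1 was not tested.

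The other targets did not pass. Vnn1 was 10.03, 9.74 and 10.44 in vehicle mice and 8.98, 8.29 and 9.12 in fenretinide mice, lower in each treated mouse by a difference of -1.27 ± 0.47 that did not pass (adjusted p = 0.15). Cpt1a was 10.71, 10.80 and 10.57 in vehicle mice and 11.00, 11.32 and 11.07 in treated mice, 0.44 ± 0.14 higher (adjusted p = 0.095). Creb3l3 was 0.34 ± 0.20 lower (adjusted p = 0.38), Pdk4 0.09 ± 0.54 lower (adjusted p = 0.94) and Acaa1b 0.33 ± 0.26 lower (adjusted p = 0.51). All 8 mitochondrial beta-oxidation enzymes and all 3 electron transfer genes were below vehicle, between -0.02 and -0.45, with 0 called. Over the 29 members 24 were below vehicle and the median was -0.14, where the median of all genes was -0.04. The share of all genes below vehicle is not given here. Non-overlapping groups were found for 10 members, 3 higher and 7 lower, and for 27.9% of all genes.

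On day 29 Cpt1a was the member called. It was 11.02, 11.03, 10.91 and 11.27 in vehicle mice and 10.37, 10.37, 10.39 and 10.78 in fenretinide mice. Treated mice were below all vehicle mice, and Cpt1a fell by 0.58 ± 0.12 (adjusted p = 0.0354), 1 of 29 members against 0.929% of all genes, with 0 called higher against 0.412%. Groups did not overlap for Cpt1a and, on the higher side, Eci1, and for 8.75% of all genes. The call stood in 1 of the 8 fits without 1 mouse, and the change in those fits lay between -0.68 and -0.51. Without the 4 libraries that carried markers of another tissue it was -0.65 (adjusted p = 0.101), with 2 mice left in each day 29 group, and 0.0495% and 0.104% of all genes were called higher and lower. The dimmer Cpt1a probe sets differed by -0.865 and -1.0.

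The other shuttle genes and the mitochondrial enzymes were above vehicle on day 29. Over all members 26 of 29 were, where 46.2% of all genes were, with a median of 0.22 against -0.02. Slc25a20 was 0.51 ± 0.17 higher (adjusted p = 0.15), Eci1 0.42 ± 0.13 higher (adjusted p = 0.14) and Pdk4 0.96 ± 0.46 higher (adjusted p = 0.36). Pdk4 was 10.58, 10.08, 12.02 and 11.03 in vehicle mice and 11.60, 13.39, 11.63 and 10.94 in treated mice. The highest treated value belonged to mouse 93, the highest vehicle value to mouse 85, and these are the 2 mice with the most brown adipocyte markers in their groups. All 7 brown adipocyte markers were above vehicle on this day, with a median of 1.38. Without the 4 libraries, 23 of 29 members were above vehicle and the median was 0.08, with no share of all genes given. That fit still held fenretinide mouse 91, with brown adipocyte markers at 9.99, and mouse 94 at 8.41. The vehicle mice kept, 81 and 83, were at 7.51 and 7.31. Acot1 was 0.50 ± 0.28 higher (adjusted p = 0.46) and 0.08 higher without the 4 libraries. Acaa1b was 0.22 ± 0.22 higher (adjusted p = 0.74) and Creb3l3 differed by 0.01.

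The effect of fenretinide on 2 members differed between the days (2 of 29 lower on day 29, against 1.27% of all genes, and 0 higher against 0.0605%). That of Cpt1a was 1.02 ± 0.18 lower on day 29 (adjusted p = 0.012) and passed in all 14 fits without 1 mouse. That of Acot1 was 1.99 ± 0.43 lower (adjusted p = 0.041), but passed in 3 of those 14, and missed without the 4 libraries (-2.41, adjusted p = 0.0707). Cpt1a passed there (-1.08, adjusted p = 0.0362), as 1 of 29 members lower against 0.478% of all genes, with 0 higher against 0.022%. Both days' values are drawn by mouse in the plot of white fat.

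**Figure D4:**
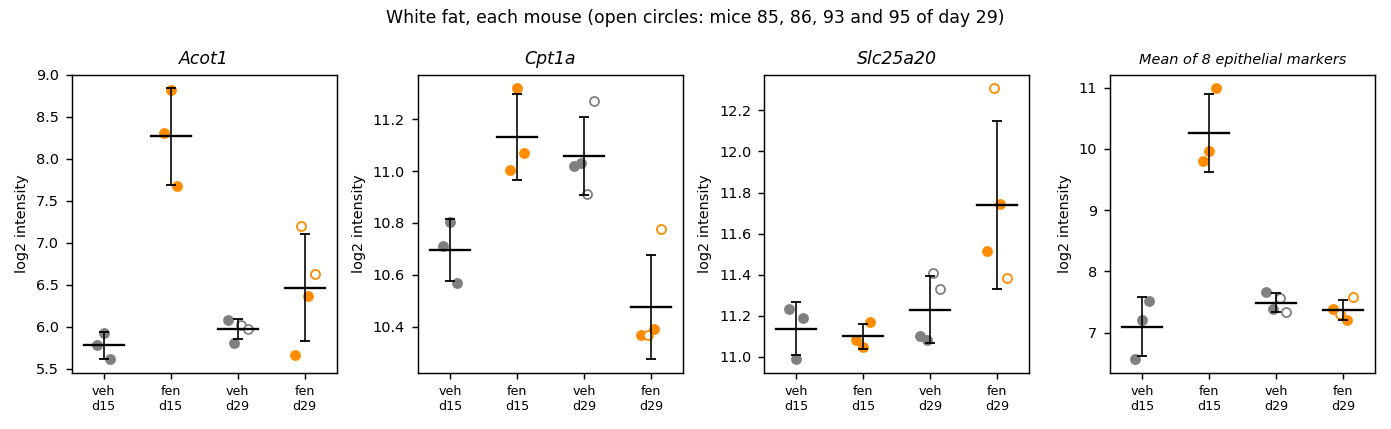
Points show the log2 intensity of Acot1, Cpt1a and Slc25a20 and the mean of 8 epithelial markers in each white fat library, with group means and SD bars, for vehicle (grey) and fenretinide (orange) mice on days 15 and 29. Open circles are the 4 libraries of day 29 that carried markers of another tissue, Acot1 and the epithelial markers are both high in the 3 fenretinide mice of day 15, and Cpt1a lies above vehicle on day 15 and below it on day 29.

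No other pathway gene was called in white fat on either day (0 of 26). Of the receptors and coactivators, Rxra was called lower on day 15: it was 10.88, 10.86 and 10.77 in vehicle mice and 10.46, 10.45 and 10.42 in treated mice, and fell by 0.40 ± 0.10 (adjusted p = 0.038). On day 29 Rxra was 0.10 ± 0.08 lower (adjusted p = 0.64). On days 15 and 29, Ppara was 0.30 and 0.72 higher, Ppargc1a 0.60 and 0.93 higher and Pparg 0.20 and 0.49 lower, with adjusted p of 0.247 or above. Ppard differed by -0.22 and 0.15, Ppargc1b by -0.14 and 0.67, Esrra by 0.19 and -0.14 and Nrf1 by -0.09 and 0.08.

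Across the 8 comparisons of treated with vehicle mice, shown together in the map of changes, 4 of the 29 members were called at least once, as were 5.19% of all genes: Acaa1b in liver and brown fat of troglitazone mice, Vnn1 in liver, and Acot1 and Cpt1a in white fat. The 2 days of each study used different mice, but brown fat and liver came largely from the same animals. For troglitazone, Acaa1b was the only member whose groups did not overlap, in the same direction, on both days, and this held in brown fat and in liver. Among the other pathway genes, the same was so of Hsd17b4 in brown fat (0.22 and 0.29 higher). It was also so of Cd36 in liver (1.04 and 1.75 higher). Each of these overlapped between groups in the other tissue. Of 18193 genes, 592 and 138 had groups apart, in one direction or the other, in brown fat on days 15 and 29. In liver these counts were 381 and 195. The share of all genes with groups apart on both days is not given here.

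**Figure D5:**
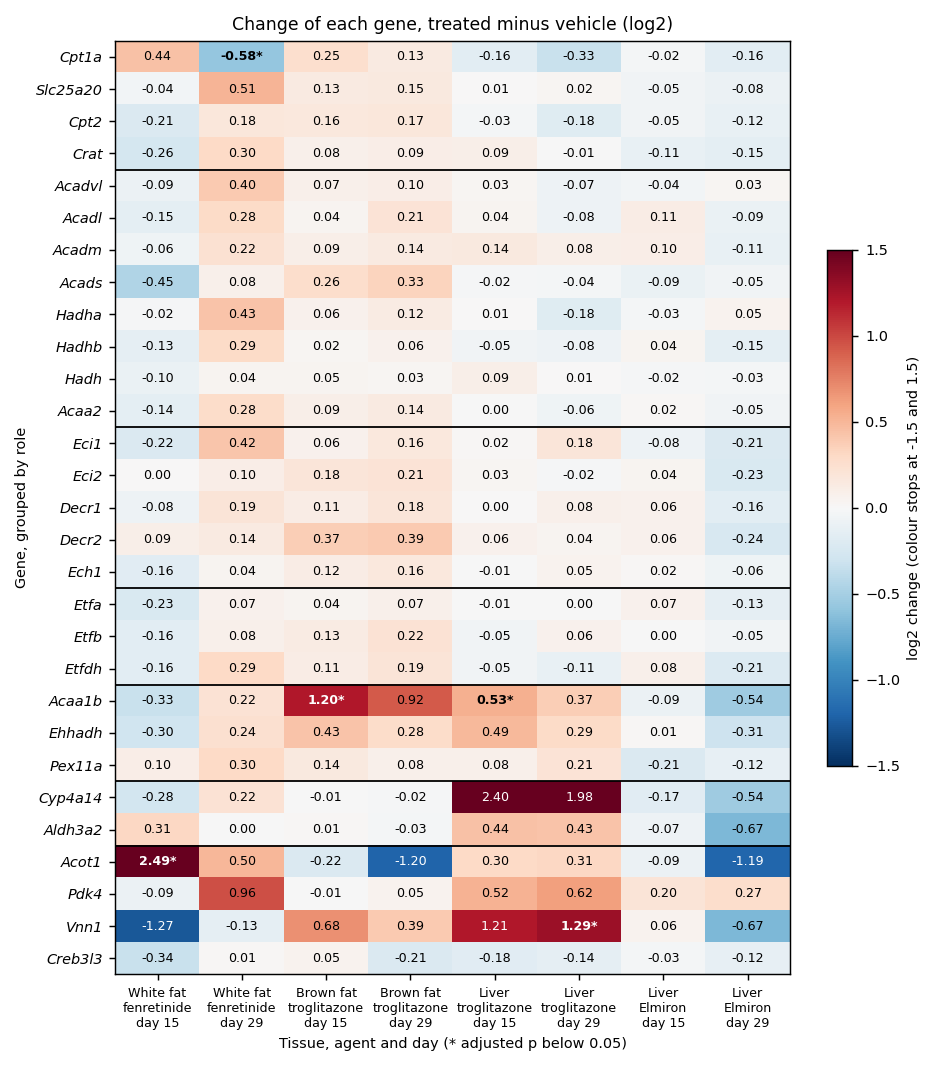
Each cell gives the log2 change of 1 gene (rows, grouped by role) in 1 comparison of treated with vehicle mice (columns), with colour from blue (lower) to red (higher) and an asterisk where the adjusted p was below 0.05. Calls are few: Acot1 (2.49) and Cpt1a (-0.58) in white fat, Acaa1b (1.196) in brown fat, and Acaa1b (0.53) and Vnn1 (1.29) in liver with troglitazone.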

How the data were processed

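RNA was measured on Affymetrix arrays, 1 array for each tissue of a mouse, 74 in all. The authors deposited RMA-processed intensity values on a linear scale, per the labels' protocols and the submitters' processing notes; which arrays were normalised together is not given in the sources used here. Log2 of the deposited intensity was used as it stood, with no further normalisation. Array medians lay between 6.80 and 6.94, and replicate arrays correlated at 0.924 to 0.996 with none identical. The precision is set by the number of arrays, and no detection calls were used.

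The platform annotation gives a single symbol to 34945 of the 45101 probe sets, more than one to 932 and no symbol to 9160. Each of 18193 genes was read from its single-symbol probe set with the highest mean intensity. Groups came from the labels, and mice are numbered as there. Models were fitted with limma 3.58.1 (lmFit and eBayes) in R 4.3.3, one for each study and tissue, or for both tissues or both liver studies where effects were compared, and p-values were Benjamini-Hochberg adjusted over all genes with a threshold of 0.05. The fits were tested on simulated data. Plots were drawn with matplotlib 3.10.9, and tables were made with pandas 2.3.3 and numpy 2.4.6 under Python 3.11.15.

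Members and gene lists were chosen with earlier results of these data known. Members named with every mouse's value were the 6 called with the largest change in each direction or, where none was called, the 2 with the smallest p; Creb3l3, Cpt1a, Pdk4, Acot1 and Acaa1b were given in every comparison, and at most 3 called genes of the rest of the pathway in each direction. A member described beside these whose call was missed was chosen after its values were seen. The fits without libraries that carry another tissue's markers (mean of hepatocyte or brown adipocyte markers above 10 in white fat of day 29, or of brown adipocyte markers below 10 in brown fat; epithelial markers were not used for this) and without Elmiron mouse 91 or 92 were chosen after seeing the data.

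Brown fat and liver of 15 mice shared a mouse number. After subtracting each group's mean, the tissues of 1 mouse correlated at -0.135 to 0.151 (over 0.1 in 1 mouse), and the mouse was used as a block in an alternative fit. Other alternatives were quantile normalisation, median centring, the mean of a gene's probe sets, leaving out the dimmer 50% of genes, array weights, fits of only the 2 groups compared, a test against a 1.5-fold change, and leaving out each array.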

Additional observations from a re-analysis of the deposited data

Results flagged for a closer look

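In groups of 4 or 5 mice, a mouse was singled out where its gap to the nearest of the others was a large share of the group's range (Dixon's test), and chance alone does this in about 1 in 20 groups. Over 406 combinations of group and member, 81 were singled out, 54 of them in the libraries that carried markers of another tissue. Those given here concern the members described above.

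In brown fat of day 29, vehicle mouse 82 was apart for Cpt1a (11.38), Acads (11.23), Eci2 (11.44), Decr2 (9.51), Ehhadh (10.71) and Pdk4 (9.97). Troglitazone mouse 95 was apart for Cpt1a (10.97), Acads (11.76), Eci2 (11.49), Decr2 (9.38), Ehhadh (11.00), Acot1 (5.56), Pdk4 (10.92) and Vnn1 (9.12). The other troglitazone mice singled out in brown fat were mouse 54 of day 15 for Ehhadh (12.43) and Cyp4a14 (5.77), mouse 55 of day 15 for Pdk4 (14.05) and mouse 91 of day 29 for Cyp4a14 (5.94). In white fat of day 29, fenretinide mouse 95 was apart for Cpt1a (10.78) and Aldh3a2 (9.51), and vehicle mouse 86 for Cyp4a14 (6.72).

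In liver, Elmiron mouse 91 of day 29 was apart for Acaa1b (12.26), Ehhadh (11.75) and Cyp4a14 (10.89), and Elmiron mouse 54 of day 15 for Vnn1 (8.25) and Creb3l3 (12.95). Of the troglitazone study, vehicle mouse 87 of day 29 was apart for Acaa1b (13.99) and Pdk4 (8.28), and vehicle mouse 44 of day 15 for Vnn1 (9.26). Treated mice were apart for Cpt1a (mouse 56 of day 15, 12.27), Acot1 (mouse 54 of day 15, 8.95), Eci2 (mouse 92 of day 29, 12.69) and Creb3l3 (mouse 96 of day 29, 12.52).

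Effects differed between groups, by a limma interaction over all genes, for 5 results. The fenretinide effect in white fat on day 29 minus that on day 15 was -1.02 for Cpt1a (0.44 on day 15 and -0.58 on day 29, adjusted p = 0.012) and -1.99 for Acot1 (2.49 and 0.50, adjusted p = 0.041). On day 29 the liver effect of troglitazone exceeded that of Elmiron by 1.10 for Aldh3a2, 1.496 for Acot1 and 1.96 for Vnn1.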

How the results depend on the processing

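No change of a called member reversed its sign under any alternative run, and calls were few, so a gene or more moved several counts. The share of all genes called in the same direction under the same alternative stands in brackets. With array weights, white fat had 2 members higher (7.83%) and 1 lower (4.19%) on day 15, brown fat had 3 higher on day 15 (1.3%) and 1 on day 29 (0.412%), liver with troglitazone had 3 higher on day 15 (0.0715%) and 2 higher (0.489%) and 1 lower (1.91%) on day 29, and Elmiron had 1 lower on day 29 (0.033%). Array weights also gave 1 member for the difference between brown fat and liver on days 15 (0.797%) and 29 (0.682%) and 5 for troglitazone against Elmiron on day 29 (5.01%). Against a 1.5-fold change, 0 members were called in white fat on day 29 (0.011%), brown fat on day 15 (0%) or liver with troglitazone on day 15 (0.0055%) or 29 (0%). With only the 2 groups compared, the counts were 0 lower in white fat on day 29 (0.159%), 2 higher in brown fat on day 15 (0.44%), and 2 and 0 higher in liver with troglitazone on days 15 (0.044%) and 29 (0.022%). Without the dimmer 50% of genes, which include Acot1 in white fat, 0 members were higher there on day 15 (3.06%) and 1 differed between the days (0.88%), 1 was higher in brown fat on day 29 (0.187%) and 2 in liver with troglitazone on days 15 (0.066%) and 29 (0.154%). Quantile normalisation and the mean of probe sets each gave 2 in liver with troglitazone on days 15 (0.033% for both) and 29 (0.104% and 0.077%), and median centring gave 1 lower in white fat on day 15 (9.65%) and 1 differing between its days (1.24%). Without the libraries that carried another tissue's markers, the counts were 0 lower in white fat on day 29 (0.104%), 1 differing between its days (0.5%), 4 higher in brown fat on days 15 (0.72%) and 29 (0.588%) and 1 for brown fat against liver on day 29 (0.269%).

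Leaving out 1 mouse gave 1 member higher in white fat on day 15, 0 to 1 lower there on day 29, 1 to 2 differing between its days, 0 to 1 higher in brown fat on each day, and 1 to 2 and 0 to 1 higher in liver with troglitazone on days 15 and 29. It gave 0 to 1 for brown fat against liver on day 29, 1 to 4 for troglitazone against Elmiron on day 29, and 17 to 19 higher and 9 to 10 lower in brown fat of vehicle mice. The other counts were 0 throughout. With the mouse as a replicate block (consensus correlation -0.045), 0 members were called for brown fat against liver on either day, and 17 were higher and 9 lower in vehicle mice, Ehhadh being lost (adjusted p = 0.0507, and 0.249 with quantile normalisation). The cause of these shifts was not tested. Counts in this paragraph are given without shares of all genes and describe only how stable the calls were.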
